A study of Caenorhabditis elegans with 4 samples.

Results

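The regions described here are the COH-3 peaks on chromosome II of Caenorhabditis elegans, taken as every peak of the series-wide list whose chromosome is II. There are 1178 such peaks among 7498 in the whole list. The study used chromatin immunoprecipitation followed by sequencing (ChIP-seq), with 2 ChIP libraries made with an affinity-purified rabbit polyclonal antibody and 2 input DNA libraries beside them. All 4 libraries came from hermaphrodites of 1 strain, fem-2(b245), with the genotype fem-2(b245)III, at the stage "Germline containing young adult", kept at 20 °C and harvested as gravid adults. No other genotype or treatment was compared. The fem-2 product acts in sex determination, and its loss feminizes the germ line; the state of the germ line in these animals was not assessed here. Each ChIP library has its own peak list, called replicate 1 and replicate 2, and nothing in the labels says that they came from separate cultures, so their spread may be technical. Values of the input libraries were not used here, and read depth is unknown.

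Cohesin is a ring-shaped complex that holds sister chromatids together and shapes chromosome axes. Its ring is closed by a kleisin subunit, and C. elegans meiosis uses the kleisin REC-8 beside COH-3 and its close paralogue COH-4, which help to build the axes on which homologous chromosomes synapse and recombine. Whether the antibody tells COH-3 from COH-4 was not assessed here. Autosomes of this animal have a gene-dense centre and arms that hold more repeats and most crossovers, and the pairing centre of chromosome II, a region that helps homologues find each other in meiosis, lies towards its left end. Peaks came from whole animals and are not assigned to germ line or soma. No genome sequence or annotation of the build used by the lists (WormBase WS220) was used here, so sites are given by coordinates, without genes or sequence letters.

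Chromosome II held 15.7% of the nuclear peaks of the series-wide list and makes up 15.2% of the nuclear length. Over all nuclear chromosomes, with X included at 38.7 peaks per Mb, its share of peaks was thus about its share of length. The series-wide list had 77.1 peaks per Mb on II and 83.7 per Mb on the other 4 autosomes, replicate 1 had 20.0 and 18.0, and replicate 2 had 34.9 and 37.7. By peak number the 2 libraries thus pointed in opposite directions. The log2 ratio of II over the other autosomes was 0.15 in replicate 1 (95% exact interval -0.03 to 0.33) and -0.11 in replicate 2 (-0.25 to 0.02; two-sided exact binomial tests, adjusted p = 0.105 in both), a mean of 0.02 ± 0.19 (SD, n = 2). Neither library passed the threshold of 0.05. By covered bases, with no test, both libraries were lower on II, at log2 ratios of -0.10 and -0.16, so the direction of replicate 1 turned. In the series-wide list the ratio was -0.12 (-0.21 to -0.03; exact binomial p = 0.0100), a call that the replicates did not share.

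The peaks of chromosome II were mostly short and low-scoring, with a thin tail of wide and strong ones. The median width of the 1178 peaks was 286.5 bp, the middle 50% ran from 199 to 491 bp, and the extremes were 146 and 8900 bp. On the other autosomes the median was 288 bp. The authors' score, a value on the peak caller's own scale that is used here only to rank peaks within a list, had a median of 6.60 on II and 6.18 on the other autosomes. Of the peaks on II, 414 (35.1%) scored below 5 and 10 scored 100 or more. The 85 peaks of 1200 bp or more were 7.22% of the number and 32.6% of the covered bases, and the share of such wide peaks was 7.03% on the other autosomes. Wide peaks tended to score higher, with a Spearman correlation of 0.69 between width and score over the 1178 peaks, which share their libraries and caller. Together the peaks covered 559 kb, or 3.66% of the chromosome, against 4.02% of the other autosomes.

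The peaks were set in 1 Mb bins to see how evenly they run along the chromosome. They were uneven at this scale, and the fullest bins lay in the centre and the right arm. Over the 15 full bins the series-wide list ranged from 38 to 127 peaks, with a median of 77. The fullest bin, from 11 to 12 Mb, held 127 series-wide peaks, 24 peaks of replicate 1 and 49 of replicate 2. The next, from 8 to 9 Mb, held 109, 33 and 44, and the bin from 5 to 6 Mb held 93, 29 and 38. In replicate 1 the bins from 8 to 9 Mb and from 5 to 6 Mb were the fullest, and in replicate 2 the bins from 11 to 12 Mb and from 13 to 14 Mb, the second of these with 48 peaks.

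In the series-wide list the 3 emptiest full bins lay towards the left end. The bin from 3 to 4 Mb held 38 series-wide peaks, 8 of replicate 1 and 24 of replicate 2, and was the lowest full bin in all 3 lists. The first Mb held 47, 20 and 30, and the bin from 2 to 3 Mb held 51, 13 and 32. The replicates shared this order only in part: replicate 1 had 13 peaks from 7 to 8 Mb as well, and replicate 2 had 26 there and 26 from 9 to 10 Mb, fewer than in its first Mb. Replicate 2 had more peaks than replicate 1 in each of the 15 full bins, by 1.30 to 3.00 times. The short last stretch, the 0.279 Mb beyond 15 Mb, was the exception, with 8 peaks in replicate 2 and 12 in replicate 1. Bin counts of replicates 1 and 2 had a Pearson correlation of 0.57 and a Spearman correlation of 0.55 over the 15 full bins, which are neighbours on 1 chromosome and not independent.

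**Figure D1:**
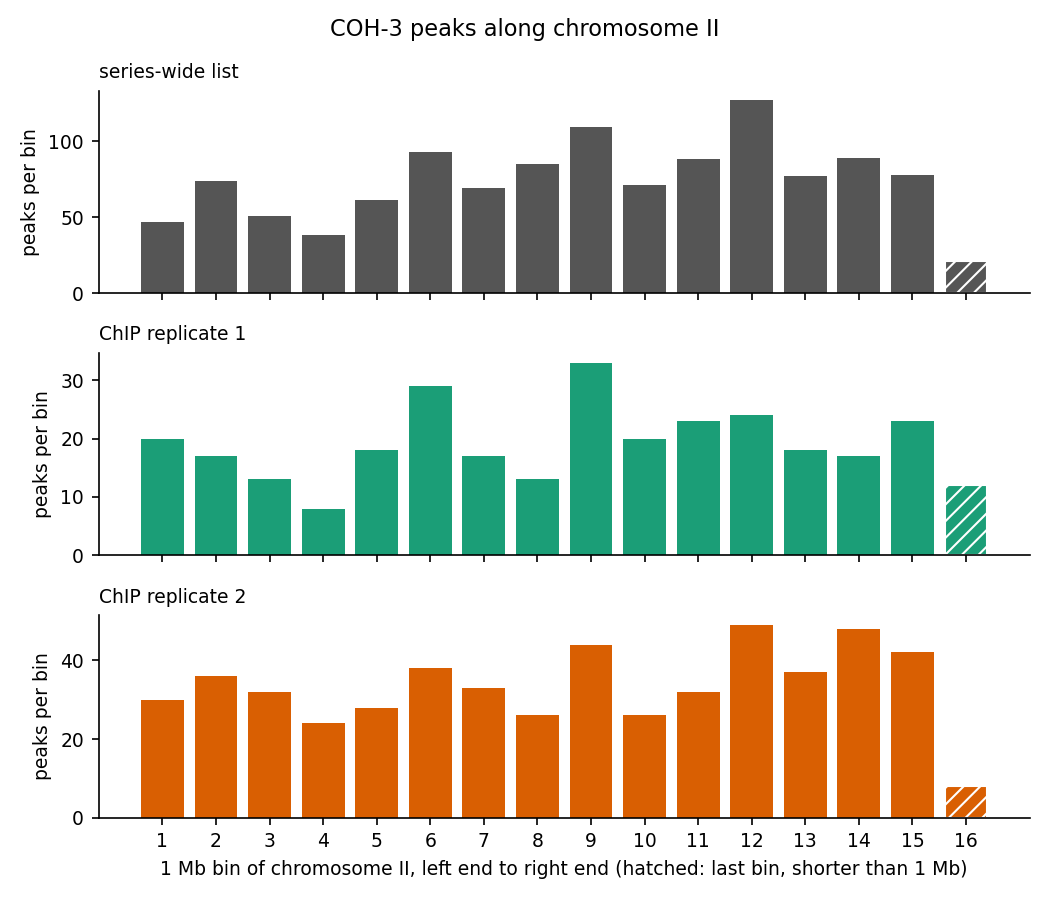
Number of COH-3 peaks (vertical axes) in each 1 Mb bin of chromosome II (horizontal axis, left end to right end), for the series-wide list and both ChIP replicates; the hatched last bin is shorter than 1 Mb. The bin from 3 to 4 Mb (number 4) is the lowest full bin in all 3 lists, at 38, 8 and 24 peaks, and bin 12 the highest of the series-wide list, at 127.

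The chromosome was then divided by length into a left arm (1 to 5093122), a centre (5093123 to 10186244) and a right arm (10186245 to 15279367), with a peak placed by its midpoint. The left arm carried fewer peaks than the right arm in both libraries. Replicate 1 had 80 peaks on the left arm, 110 in the centre and 115 on the right arm, and replicate 2 had 156, 165 and 212. Both libraries were thus lowest on the left arm and highest on the right. The log2 ratio of the left arm over the right arm was -0.52 in replicate 1 (95% exact interval -0.95 to -0.10; exact binomial test, adjusted p = 0.0147) and -0.44 in replicate 2 (-0.75 to -0.14; adjusted exact binomial p = 0.00816), a mean of -0.48 ± 0.06 (SD, n = 2).

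The series-wide list showed the same order with a steeper step. It had 282 peaks on the left arm, 426 in the centre and 470 on the right arm, or 55.4, 83.6 and 92.3 per Mb. Its log2 ratio of left over right was -0.74 (95% exact interval -0.96 to -0.52; exact binomial p = 7.16e-12), though the list is not independent of the replicates. The left arm was lower as well in covered bases, for which no test was made. Peaks covered 0.653% of the left arm and 1.24% of the right arm in replicate 1, and 2.42% and 3.40% in replicate 2. These tests treat peaks as independent, which neighbouring peaks are not, and 2 alternatives with fewer peaks lost the call in 1 library each. With peaks closer than 500 bp joined, the mean was -0.43 (adjusted exact binomial p = 0.0882 in replicate 1). Among the better-scoring 50% of peaks the ratios were -1.24 in replicate 1 and -0.37 in replicate 2, a larger mean of -0.80 (adjusted exact binomial p = 0.000533 and 0.0932).

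Whether the slope from left to right is peculiar to chromosome II was tested against the other autosomes. On those, replicate 1 had 372 peaks on the left arms and 373 on the right arms, and replicate 2 had 804 and 882. The log2 ratios of left over right there were -0.004 and -0.13. The difference between II and the other autosomes did not pass the threshold in either library (two-sided Fisher's exact tests, adjusted p = 0.0594 for replicate 1 and 0.0738 for replicate 2). A slope particular to chromosome II was therefore not shown.

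The centre of chromosome II did not stand apart from the arms in both libraries. Its density was 21.6 peaks per Mb in replicate 1, and replicate 2 had 32.4. Against both arms together, its log2 ratio was 0.17 in replicate 1 (95% exact interval -0.18 to 0.52) and -0.16 in replicate 2 (-0.43 to 0.11; two-sided exact binomial tests, adjusted p = 0.331 in both), a mean of 0.01 ± 0.23 (SD, n = 2). The sign differed between the libraries. The series-wide list passed narrowly, at 0.18 (0.005 to 0.35; exact binomial p = 0.0414).

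**Figure D2:**
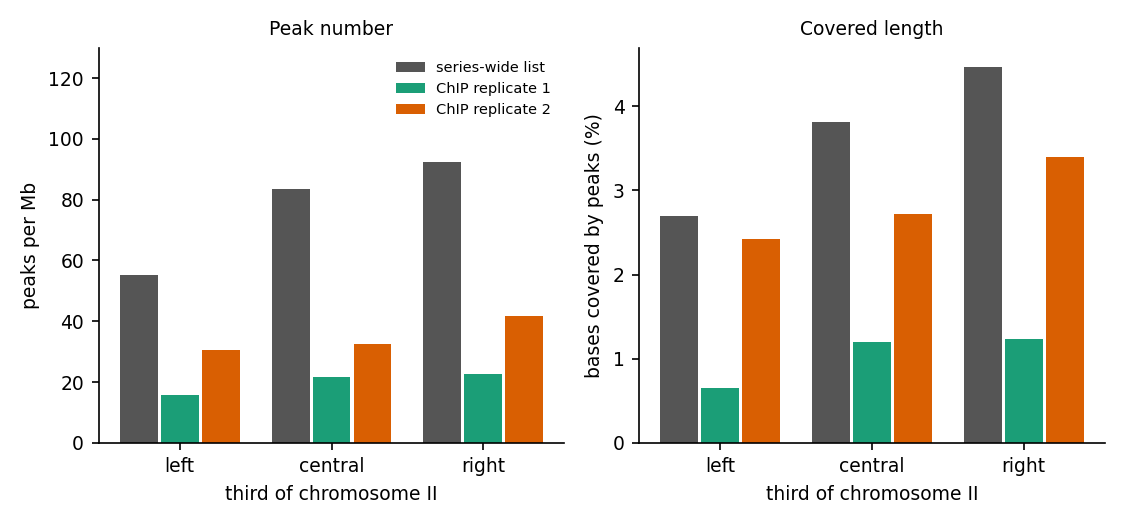
Peaks per Mb (left panel) and percentage of bases covered by peaks (right panel) on the left arm, in the centre and on the right arm of chromosome II, each spanning the same length, for the series-wide list and both ChIP replicates. Bars are values of single lists. The left arm is lowest in all 3 lists, at 15.7 peaks per Mb for replicate 1 and 30.6 for replicate 2.

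The arms differed less in the size of their peaks than in their number. In the series-wide list the median width was 285.5 bp on the left arm, 278.5 bp in the centre and 292.5 bp on the right arm, and the median score was 7.35, 6.18 and 6.34. Of the 50 highest-scoring peaks of the chromosome, 18 lay on the left arm, 10 in the centre and 22 on the right arm. The left arm held 23.9% of all peaks of the chromosome. Peaks of 1200 bp or more numbered 21, 25 and 39. In replicate 1 the peaks of the left arm were also narrower, with medians of 327.5, 378 and 429 bp in the same order, while in replicate 2 the medians were 503, 533 and 536 bp. The replicates differed in score. The median score in the same order was 97.5, 127 and 137 in replicate 1, lowest on the left arm. In replicate 2 it was 173, 137 and 145, highest on the left arm.

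Support in the replicates was read as an overlap of at least 1 bp. Of the 1178 peaks on II, 181 (15.4%, 95% exact interval 13.4 to 17.6) overlapped a peak of both replicates, while 13.9% of all nuclear peaks of the series did. A further 375 (31.8%) overlapped only replicate 2, against 33.4% of all nuclear peaks, and 73 (6.20%) overlapped only replicate 1, against 6.58%. The other 549 (46.6%) overlapped neither replicate list, against 46.1%. These shares are close to the background of the whole series, and nothing is read from them about chromosome II. Peaks supported by both replicates had a median width of 785 bp and a median score of 27.4, and those supported by neither had 204 bp and 4.52.

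Support followed the score closely. In the highest score quartile of chromosome II, from 12.08 to 171.57, 156 of 295 peaks (52.9%, 95% exact interval 47.0 to 58.7) overlapped both replicates and 3 (1.02%) overlapped neither. In the next quartile 22 of 282 (7.80%, 4.95 to 11.6) overlapped both. In the 2 lower quartiles 1 of 291 and 2 of 310 did, and 69.4% and 82.3% overlapped neither. Of the 50 strongest peaks 47 overlapped both replicates, and of the 100 strongest 87 did. Score and width also rose together, with a median width of 192 bp in the lowest quartile and 584 bp in the highest. A strong peak thus offered more bases to overlap. The scores and the replicate lists also go back to the same ChIP libraries, so overlap may rise with score by construction. It is not separate evidence for the strong peaks. Shares by score were not computed for other chromosomes, so nothing is read from them about chromosome II.

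**Figure D3:**
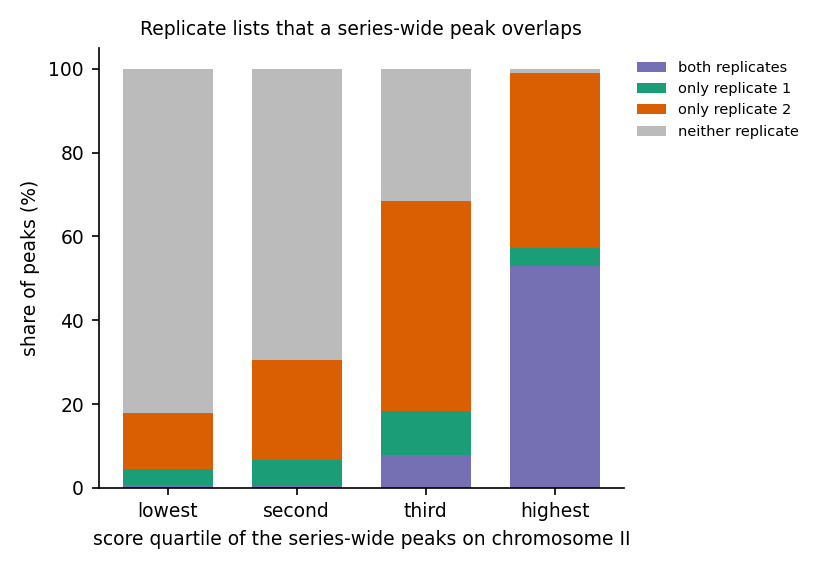
Share of the series-wide peaks on chromosome II (vertical axis, percent) that overlap both replicates, only one of them or neither, by quartile of the authors' score (horizontal axis). Overlap with both replicates is 52.9% in the highest quartile and 7.80% in the next.

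**Figure D4:**
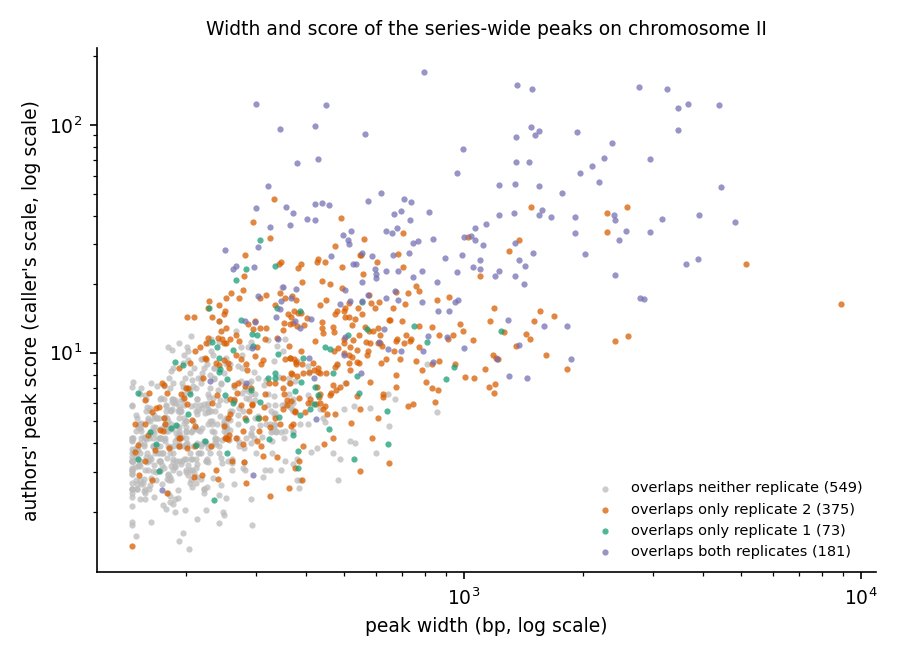
Width (bp, log scale) and authors' score (log scale) of each of the 1178 series-wide peaks on chromosome II, coloured by the replicate lists they overlap. Peaks found in both replicates lie towards high width and high score; the widest, at 8900 bp, has a score of 16.3 and overlaps only replicate 2.

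Seen from the replicates, most peaks of replicate 1 on chromosome II recurred and most of replicate 2 did not. In replicate 1, 216 of 305 peaks (70.8%, 95% exact interval 65.4 to 75.9) overlapped replicate 2, against 69.0% over all nuclear chromosomes. In replicate 2, 183 of 533 peaks (34.3%, 30.3 to 38.5) overlapped replicate 1, against 31.3%. Against the other autosomes alone, the shares were 70.8% on II and 73.6% elsewhere for replicate 1 (two-sided Fisher's exact test, adjusted p = 0.348), and 34.3% on II and 28.9% elsewhere for replicate 2 (adjusted Fisher's exact p = 0.0288). The higher share of replicate 2 on II did not pass when 50% of the peak had to be covered (21.4% and 17.6%, adjusted Fisher's exact p = 0.0841) or when midpoints had to lie within 500 bp (32.1% and 27.2%, p = 0.0516), and among the better-scoring 50% of peaks II was the lower (26.4% and 29.5%, p = 0.336).

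Where a peak of one replicate matched exactly 1 peak of the other, the positions were close. There were 142 such pairs on II, and their midpoints lay a median of 54 bp apart, within 100 bp in 97 pairs. The peak of replicate 2 was the wider in 111 of the 142 pairs. The median was 586.5 bp in replicate 2 and 372 bp in replicate 1. The scores of the pairs had a Spearman correlation of 0.10 over the 142 pairs. Peaks without a match were narrower and weaker within their own list: in replicate 1 the 89 unmatched peaks had a median width of 320 bp and the 216 matched ones 415 bp, and in replicate 2 the 350 unmatched peaks had 473 bp and the 183 matched ones 656 bp. Of the 479 kb of chromosome II covered by either replicate, 113 kb (23.7%) was covered by both.

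Along the chromosome, the share of replicate 1 found again was highest on the left arm. There 70 of its 80 peaks (87.5%, 95% exact interval 78.2 to 93.8) overlapped replicate 2, while 61 of 110 in the centre (55.5%, 45.7 to 64.9) and 85 of 115 on the right arm (73.9%, 64.9 to 81.7) did. The 3 shares were not tested against each other, and in replicate 2 they were 37.2%, 34.5% and 32.1%. A centre lower than both arms is not particular to II, as replicate 1 had it on I, IV, V and X as well. On III the right arm was the lowest. Across the other autosomes the replicate 1 shares were 64.4 to 83.0% on the left arm, 61.8 to 79.6% in the centre and 66.3 to 86.1% on the right arm. With both lists held to their better-scoring 50%, 19 of 25 replicate 1 peaks on the left arm, 28 of 50 in the centre and 38 of 59 on the right arm overlapped replicate 2.

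The series-wide peaks that a single replicate supported were also spread unevenly. Peaks overlapping only replicate 1 made up 7 of 282 on the left arm (2.48%, 95% exact interval 1.00 to 5.05), 40 of 426 in the centre (9.39%, 6.79 to 12.6) and 26 of 470 on the right arm (5.53%, 3.6 to 8.0). Of the 73 such peaks, 14 fell in the bin from 5 to 6 Mb, 5 of them neighbours in 1 run from 5336147 to 5341239. Peaks overlapping only replicate 2 made up 35.1%, 27.2% and 34.0%, and peaks overlapping both made up 20.2%, 13.4% and 14.3%. Such shares by arm were not computed for other chromosomes, so nothing is read from them about chromosome II. The series-wide list was derived from the libraries in a way the sources used here do not give, so these shares and those of the replicates are not separate evidence.

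Nearly every replicate peak on II lay under a series-wide peak. This held for 295 of 305 peaks of replicate 1 (96.7%), against 96.6% over all nuclear chromosomes, and for 517 of 533 of replicate 2 (97.0%), against 97.1%. The series-wide list cut some broad replicate peaks into pieces. In replicate 2, 50 peaks spanned 2 or more series-wide peaks, as did 8 in replicate 1, and 1 peak of replicate 2 spanned 6. The reverse occurred too: the series-wide peak from 15137493 overlapped 5 peaks of replicate 1, and that from 3159591 overlapped 4 of replicate 2. The 10 peaks of replicate 1 and 16 of replicate 2 without a series-wide partner ranked no higher than 131 of 305 and 339 of 533 in their own lists.

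At a finer scale, series-wide peaks on chromosome II came in short runs separated by long empty stretches. The gap between neighbouring series-wide peaks had a median of 3456 bp, with 42.6% of gaps under 2 kb and 67 gaps over 50 kb. In replicates 1 and 2, 30.6% and 27.3% of gaps were under 2 kb. Joining series-wide peaks closer than 500 bp left 870, so part of the runs depends on how that list cuts its peaks. Of the 1178 peaks, 748 (63.5%) lay less than 2 kb from a neighbour. This was within the range of the other autosomes, which ran from 57.1% on V to 72.0% on III. Of the 152 full windows of 100 kb, 2 held no series-wide peak, 38 held none of replicate 1 and 14 none of replicate 2.

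The fullest windows of 100 kb lay in the centre and on the right arm. The window from 7.0 to 7.1 Mb held 29 series-wide peaks, 6 of replicate 1 and 11 of replicate 2, but its highest score was 20.35 and 3 of its peaks were found in both replicates. The window from 5.3 to 5.4 Mb held 25, 8 and 9 peaks, with 1 found in both replicates and a highest score of 19.28. The window from 10.5 to 10.6 Mb held 23, 10 and 7 peaks, with 4 found in both. The median window held 6 series-wide peaks.

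The longest runs of peaks, with less than 2 kb between neighbours, were of different kinds. The longest had 13 peaks over 16.6 kb, from 9807969 to 9824545, of which 87.9% was covered. All 13 overlapped only replicate 2, where 4 broad peaks of 1906 to 7418 bp filled the stretch, and replicate 1 had none there. Their series-wide scores ran from 2.89 to 11.31, so the run was wide and low in that list. In replicate 2 it was not low, as its 4 peaks scored 642 to 2369, above that list's upper quartile on II of 360. The second run had 11 peaks over 9.40 kb from 14601518 to 14610919, of which 8 overlapped neither replicate. The next had 10 peaks over 9.15 kb from 11971517 to 11980663, with 2 found in both replicates, 4 only in replicate 2, 4 in neither, and a highest score of 31.1.

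Some long empty stretches were shared by the libraries and others were not. The longest gap of the series-wide list spanned 215.6 kb, from 5981326 to 6196933, mostly in the bin from 6 to 7 Mb. Neither replicate had a peak there. It lay inside the longest gap of replicate 2, 423 kb from 5845466 to 6268468, which held 2 replicate 1 peaks and 10 series-wide peaks, and inside a gap of 381 kb in replicate 1, from 5867244 to 6248643. The next gaps of the series-wide list were 125.2 kb from 10662439, 124.3 kb from 3662179, 123.9 kb from 6597762 and 116.4 kb from 3817859, and no replicate peak lay wholly inside any of them, as nearly all replicate peaks overlap a series-wide one. Of these 5 gaps, 2 lay in the bin from 3 to 4 Mb, the emptiest one. Of the 5 longest gaps of replicate 1, 4 held peaks of replicate 2. The longest spanned 469 kb from 1153094 to 1621778, where replicate 2 had 15 peaks and the series-wide list 29, and those of 434, 369 and 361 kb held 6, 9 and 8 peaks of replicate 2. Of the 5 longest gaps of replicate 2, 2 held peaks of replicate 1, the second being 415 kb from 7479122 to 7894555, where replicate 1 had 2 and the series-wide list 19.

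The chromosome ends differed as well. The left end carried a terminal peak in all 3 lists, from base 1 to 440 in the series-wide list (score 45.35), to 417 in replicate 1 and to 503 in replicate 2. The right end carried a terminal series-wide peak of 349 bp from 15279019 to 15279367 with a score of 19.47. Neither replicate had a peak in the last 50 kb. The end of the chromosome was taken as the last peak end and is approximate.

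All of the 10 highest-scoring peaks of chromosome II overlapped both replicates by at least 1 bp, while 7 were found in both with 50% of the peak covered and 6 by midpoints within 500 bp. They scored from 118.77 to 171.57. Just below them, the next peak, from 915206 to 915626, scored 98.72. The strongest was a compact site of 793 bp on the left arm, from 2378315 to 2379107, with a score of 171.57. It was matched by single peaks of 924 bp in replicate 1, where it was the highest-scoring peak of the chromosome, and of 972 bp in replicate 2, where it was tied with 19 others at the score of 3100 behind 1 higher peak. It stood alone, with 29.1 kb to its left neighbour and 6.83 kb to its right neighbour.

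A cluster on the right arm held 3 of the 5 strongest peaks within 8.76 kb. They spanned 13819135 to 13820491 (score 150.56), 13824654 to 13827898 (144.17) and 13822564 to 13824045 (143.46). With the peaks from 13817641 to 13818990 (score 88.93) and from 13820898 to 13822445 (93.9) they formed an array of 5 peaks over 10.3 kb. Replicate 1 resolved the array into 6 peaks of 545 to 808 bp, whose midpoints were 1669 to 1933 bp apart with a mean of 1785 bp. Replicate 2 had 3 peaks of 2977 to 3070 bp there, with midpoints 3470.5 and 3572.5 bp apart, each spanning 2 peaks of replicate 1. The steps in replicate 2 were thus about those of 2 steps in replicate 1. In replicate 2 all 3 peaks reached the score of 3100, while in replicate 1 the 6 scored 430 to 701 and the best-scoring one under each of those 3 members ranked 16, 19 and 31 on the chromosome. Neither the sequence nor the mappability of the array was analysed here.

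**Figure D5:**
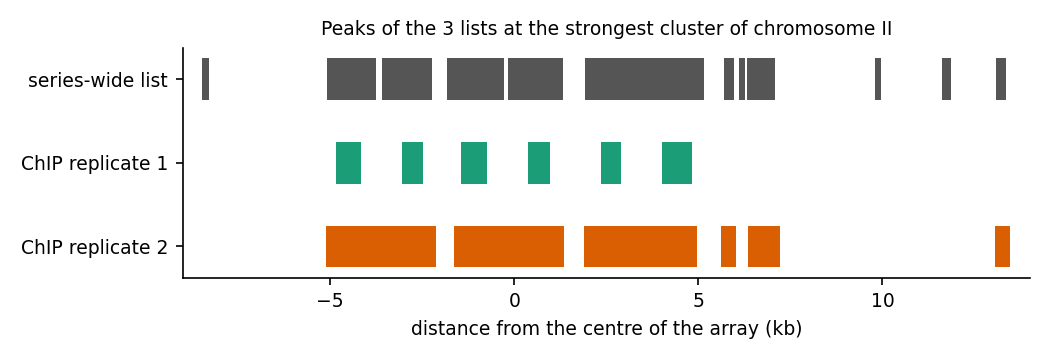
Positions of the peaks of the 3 lists (rows) around the strongest cluster of chromosome II, as distance in kb from the centre of the 6 peaks of replicate 1 (horizontal axis); each block is 1 peak drawn to scale. The 6 peaks of replicate 1 follow each other at steps of 1669 to 1933 bp, and each of the 3 broad peaks of replicate 2 covers 2 of them.

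The other strong sites were of 2 forms, broad peaks and compact ones. The third, from 11149407 to 11152169, was 2763 bp wide with a score of 146.52, and was matched by a peak of 2814 bp in replicate 1 and by 2 peaks in replicate 2. The sixth, from 9631670 to 9635328, was 3659 bp wide with a score of 123.77, and covered 3 peaks of replicate 1 and 1 of replicate 2. The eighth, from 8743409 to 8747810, was 4402 bp wide with a score of 122.81, and reached the score of 3100 in both replicates. The tenth, from 15137493 to 15140951, was 3459 bp wide with a score of 118.77, and covered 5 peaks of replicate 1 and 2 of replicate 2. These 4 broad sites lay in the centre and on the right arm.

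Among the 10 highest-scoring series-wide peaks, the compact ones lay on the left arm. The seventh, from 1851754 to 1852052, was 299 bp wide and scored 123.09. The ninth, from 4047873 to 4048321, was 449 bp wide and scored 122.45. Each was matched by 1 peak in each replicate, of 414 and 437 bp at the seventh and of 479 and 640 bp at the ninth. In the replicates' own lists the seventh ranked 29 in replicate 1 and 65 in replicate 2, and the ninth ranked 24 and 66. Together with the strongest site, the left arm thus had 3 of the 10 strongest peaks, all of 793 bp or less, while the other 7 were 1357 to 4402 bp wide. The strongest peaks of the replicates' own lists did not keep this split. In replicate 2 the highest-scoring peak, from 697620 to 699215, lay on the left arm and was 1596 bp wide. In replicate 1 a peak of 895 bp from 12059375 on the right arm scored 1541.24. No difference in peak form between the arms is read from these few sites.

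By series-wide score the 5 widest peaks ranked 207, 130, 69, 36 and 8 of 1178, in order of falling width. Several also ranked high in replicate 2. The widest, 8900 bp from 3159591 to 3168490, scored 16.3 and ranked 207 of 1178. It overlapped none of replicate 1 and 4 peaks of replicate 2, the best of which ranked 22 of 533 in that list. It lay in the emptiest bin with 82.4 kb and 58.2 kb to its neighbours. The second, 5130 bp from 13428981 to 13434110, scored 24.47 and was also found only in replicate 2, as 1 peak of 4975 bp at the score of 3100. The next 3 were found in both replicates: 4807 bp from 10541438 (score 37.67), 4444 bp from 8288312 (53.41) and 4402 bp from 8743409 (122.81). Their replicate 2 peaks scored 1930.54, 3100 and 3100. Of the 85 peaks of 1200 bp or more, 63 were found in both replicates, against 181 of all 1178 peaks on II (15.4%). A wide peak offers more bases to overlap. The count was not made for wide peaks of other chromosomes, so nothing is read from it about chromosome II.

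The 3 strongest peaks without support in both libraries were all missing from replicate 1. The first, from 4049662 to 4049993 with a score of 47.22, ranked 39 on the chromosome and lay 1.34 kb from the ninth strongest site. The next ones, at 2001630 to 2003107 (score 43.70) and at 14835353 to 14837930 (43.68), were matched by peaks of 2434 and 2712 bp in replicate 2. These 3 were the only members of the 50 strongest that were not found in both. They were chosen after their values were seen. In the highest score quartile of II, 123 peaks overlapped only replicate 2 and 13 only replicate 1. Over all nuclear peaks the shares were 33.4% and 6.58%. Absence from replicate 1 was thus the common case among peaks found in only 1 replicate, and nothing is read from it about these sites.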

How the data were processed

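The submitters' processing notes name BWA and the build ce10, and per the file headers the coordinates are WormBase WS220. Per the source column of the deposited files, MACS made the replicate lists and MACS v2 the series-wide list. Each peak has a score given by the authors, whose scale the files leave unnamed. The sources used here do not state the threshold, the use of input, duplicate removal or the pooling behind the series-wide list, so lists of different length can reflect depth or caller. Per the labels' protocols, frozen ground worms were fixed with EGS for 20 min and with EGS plus formaldehyde for 10 min.

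Numbers, widths, gaps and overlaps (1 bp) were computed with Python 3.11.15, numpy 2.4.6, pandas 2.3.3 and scipy 1.17.1, and plots with matplotlib 3.10.9, on the 6 nuclear chromosomes, leaving out 3 mitochondrial peaks of the series-wide list and 1 of replicate 1. Chromosome extents ran from base 1 to the last peak end in any list (15279367 for II) and are approximate. For each replicate, densities were compared by two-sided exact binomial tests and shares by two-sided Fisher's exact tests. P-values were adjusted over the 2 replicates by the Benjamini-Hochberg method, and a density was called when both passed 0.05 in one direction. Peaks are not independent, so replication rests on both libraries showing the same, and 95% Clopper-Pearson intervals cover counting error only. The exact binomial test was checked on simulated counts, and Fisher's exact test was not. Overlap counts were checked against direct counting on chromosome II, with the real lists and with replicate 2 peaks placed at random.

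Sites were named by rule: the 10 highest-scoring peaks, the 5 widest, the 3 fullest and emptiest 1 Mb bins, the 3 fullest 100 kb windows, the 5 longest gaps and the 3 longest runs. The peaks and lists were chosen with earlier results of these data known. Alternatives were the better-scoring 50%, merging within 500 bp, covered bases, the central 50%, the series-wide list, each replicate alone, equal numbers of peaks (1812), and overlap by 50% or by midpoints within 500 bp.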

Additional observations from a re-analysis of the deposited data

How the results depend on the processing

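Of 37 alternative values, 20 counted as the same. Tested values did so when they kept their direction and side of the threshold. Others did so within the spread or interval of the main value or, for counts and widths, within a fixed fold of it. The fold rule passed 870 merged peaks against 1178 and a median width of 328.5 against 286.5 bp. It also passed 7 strong sites against 10. The mean log2 ratio of the left over the right arm, -0.48, ranged from -0.52 to -0.44 with one replicate left out. It was no longer called in the better-scoring 50% (-0.80) or after merging peaks closer than 500 bp (-0.43), and was -0.71 by covered bases. The ratio of chromosome II over the other autosomes, 0.02, was -0.057 in the better-scoring 50%, -0.12 in the series-wide list, -0.13 by covered bases and from -0.11 to 0.15 with one replicate left out. The ratio of the centre over the arms, 0.01, was 0.18 and called in the series-wide list, -0.041 with equal numbers of peaks, and from -0.16 to 0.17 with one replicate left out. The share of replicate 2 peaks on II found in replicate 1 was 21.4% with 50% of the peak covered, 32.1% by midpoints and 26.4% in the better-scoring 50%, none of them called against the other autosomes. Peaks of II found in both replicates made up 9.34% with 50% covered and 28.7% in the better-scoring 50%, which by construction kept 621 peaks with a median width of 432 bp. Of the 10 strongest sites, 7 were found in both replicates with 50% covered and 6 by midpoints. Some of these settings hold fewer peaks and others do not, and the cause of the changes was not tested. Equal numbers of peaks and the test of the arms of II against those of the other autosomes were added after the data were examined. Read depth is unknown, so a longer list cannot be told apart from deeper sequencing. No paired analysis was possible because only the ChIP libraries have values in the lists used.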
